A study of Mus musculus with 14 samples.

Results

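The comparison described here set CD8+ T cells from mice given soluble ovalbumin (OVA, 3 libraries) against CD8+ T cells from mice given saline (named Naive, 3 libraries), over every gene with values. The 6 libraries were chosen by treatment label from the 14 of the series. All of them came from OT-I cells, whose transgenic receptor sees SIINFEKL, a peptide of ovalbumin, on the class I molecule H2-Kb. CFSE-labelled OT-I cells were moved into CD45.2+ C57BL/6 recipients on day 0, with mice aged 8 to 12 weeks, and 223 pmol of ovalbumin, or saline alone, was injected into a vein on day 1. On day 4 the transferred cells were recovered from spleen by negative selection on beads and sorting for CD3e, CD8 and CD45.1, and polyadenylated RNA was sequenced with a stranded kit. The recipients kept their own T cells, which the CD45.1 gate was set to leave out. The labels do not say whether a library came from 1 mouse or from a pool, so p-values measure a spread between libraries. That spread was pooled over all 14 libraries of the series. ERY1-OVA (ovalbumin joined to an erythrocyte-binding peptide) and TER119-SIINFEKL (the peptide joined to an antibody fragment against erythrocytes), 3 libraries each from the same protocol, serve below as neighbours for comparison and enter the pooled spread. The values are log2 RPKM as the authors deposited them, that is, the logarithm of reads scaled to gene length and to the size of the library, so levels can be set beside each other between genes. The depth behind them is unknown.

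A resting CD8+ T cell is small, out of the cell cycle and kept alive by interleukin-7, and it circulates between blood and lymphoid organs through CCR7 and the sphingosine-1-phosphate receptor. When its receptor meets peptide on an antigen-presenting cell, it enters a burst of divisions, switches to a metabolism that builds nucleotides, lipids and protein, and changes its surface receptors and its granule proteins. Soluble protein given without adjuvant is a classical way to induce tolerance, in which T cells divide at first and later fail to persist or to function.

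The cells carried the transcripts of the labelled type. The summed level of 5 CD8+ T cell markers was 2486 to 2878 RPKM in the Naive and 1932 to 2218 RPKM in the OVA libraries, with 3 of the 5 lower after OVA, and Cd4 lay between 0.197 and 0.419 RPKM. Of 8 B cell markers 3 had values, and Cd79a, Ms4a1, Pax5 and Cr2 were among those with none. The B cell gene Cd22, an inhibitory lectin, stood at 0.317, 0.435 and 0.369 RPKM in the Naive libraries and at 6.82, 6.41 and 6.97 RPKM in the OVA libraries. The other B cell markers with values did not rise with it. Cd79b overlapped between groups (8.12 to 9.96 RPKM in Naive, 8.09 to 15.0 RPKM in OVA). Blk lay at 0.497 to 2.14 RPKM in Naive and 0.407 to 0.471 RPKM in OVA. No marker of neutrophils (of 4) or platelets (of 3) had values. The 4 NK cell markers with values (of 5) summed to 12.4 to 24.9 RPKM in Naive and 8.30 to 21.8 RPKM in OVA. The 2 red cell markers with values (of 6) summed to 7.54 to 10.85 RPKM in Naive and 2.73 to 8.54 RPKM in OVA. The 4 dendritic cell markers with values (of 7) summed to 11.8 to 26.3 RPKM in Naive and 12.4 to 62.3 RPKM in OVA, and the 2 macrophage and monocyte markers (of 8) to 3.50 to 7.08 and 5.90 to 15.6 RPKM. The upper end came from OVA replicate 1, in which Cd74, the invariant chain of MHC class II, reached 34.4 RPKM against 9.16 and 5.87 RPKM in the other OVA libraries and 6.03 to 15.1 RPKM in Naive. Of stromal markers Vim (178 to 210 RPKM in Naive, 419 to 468 RPKM in OVA) and Pecam1 had values, whereas Cdh5, Kdr, Col1a1 and Col3a1 had none. The part of such cells in the results below was not tested.

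OVA replicate 1 stood apart in a second way. Within the OVA group, the rank correlation across genes between its deviation and gene length was -0.47, against 0.28 and 0.45 for OVA replicates 2 and 3, so short genes read high in it. It was the highest OVA library for 40.2% of all genes, but for 80 of 80 cytosolic ribosomal protein genes and 72 of 77 genes of oxidative phosphorylation. Counts of several lists of short genes are also given without it. The first principal component of the 6 libraries held 84.9% of the variance and separated the groups. The second, with 7.2%, was led by OVA replicate 1 (20.7 against -13.2 and -9.3 in the other OVA libraries). Naive replicate 1 lay on the same side (13.3, against -8.3 and -3.1 in Naive replicates 2 and 3).

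Of 9793 genes tested, 4659 (47.6%) were called at an adjusted p under 0.05 in limma, 2392 (24.4%) higher and 2267 (23.1%) lower after OVA. These shares are the level against which each group of genes below is read. The ranges of the 3 OVA and 3 Naive libraries did not overlap for 4580 of the called genes and overlapped for 79. This count adds no support to the calls, because genes called on the same values seldom overlap. Rises and falls differed in size. Among called genes 759 rose and 324 fell by at least 2-fold, 300 rose and 3 fell by at least 4-fold, and 105 rose and 0 fell by at least 16-fold. The filter took the mean over all 14 libraries, most of them from mice given antigen. It therefore kept genes low in Naive more readily than genes low after antigen. Large folds also depend on Naive values near the floor, and the part of both in this difference was not tested. The 3 that fell by at least 4-fold were Nr1d1, a repressor of the circadian clock, Igfbp4, a binding protein of insulin-like growth factor, and Fam211b. The balance of directions depended on scaling, because the higher share of called genes was 51.3% as deposited and 42.5% with quantile normalization, which moved the median of all genes from -0.04 to -0.10 on the log2 scale.

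**Figure D1:**
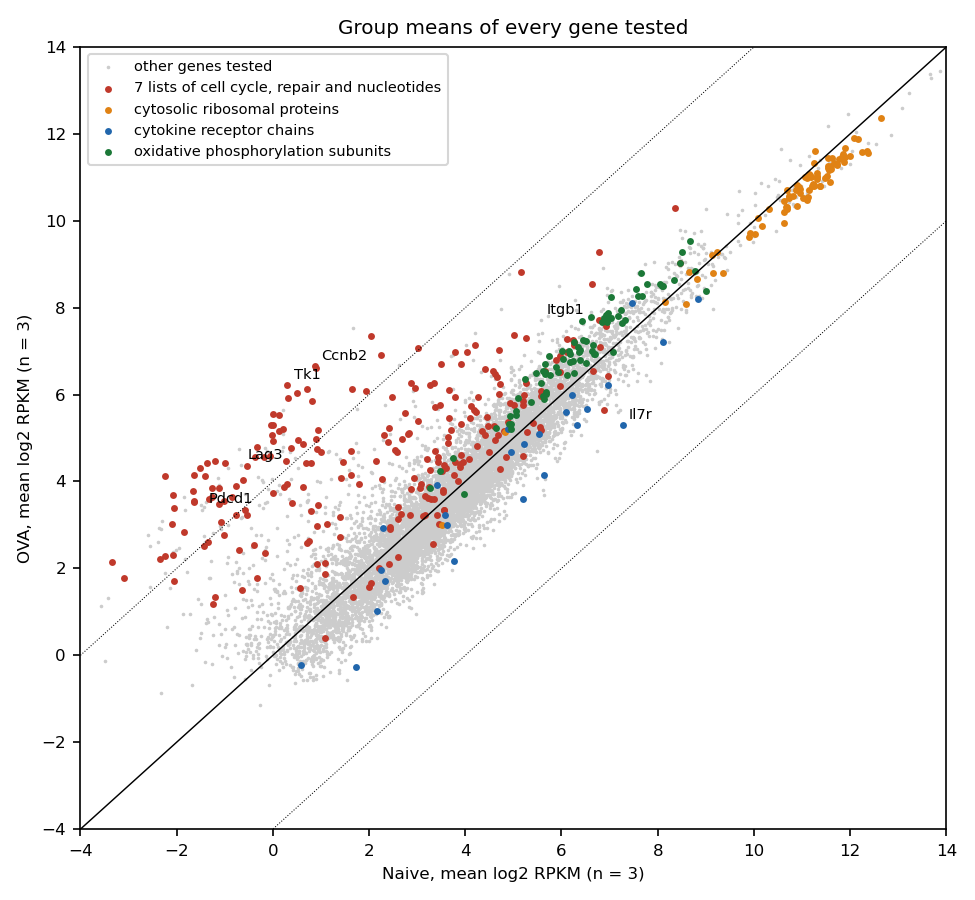
Mean log2 RPKM of each gene tested in the Naive (horizontal axis) and OVA libraries (vertical axis, n = 3 each), with equality as a solid line and 16-fold differences as dotted lines. The 105 genes called at least 16-fold higher lie along and above the upper dotted line and no called gene reaches the lower one, while ribosomal protein genes sit at the top right just under equality.

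Genes of cell division made up most of the large rises. The 7 lists for replication licensing, the replication fork, cyclins and E2F factors, the spindle, condensin and histone chaperones, DNA repair and nucleotide synthesis held 240 distinct genes tested, of which 201 rose and 8 fell, and 60 of the 105 genes with a 16-fold rise belonged to them. E2f8, a repressor of the E2F family that is itself switched on late in S phase (chr7:48866429-48881596, GRCm38), was at 0.101, 0.196 and 0.480 RPKM in Naive and at 14.9, 17.7 and 20.1 RPKM in OVA, a log2 change of 6.37 ± 0.68 (3 against 3 libraries, with the SE from the spread pooled over all 14). Its size depends on values far below 1 RPKM, whose prior count is not stated, and with a pseudocount of 1 it was 3.89. Tk1, the salvage kinase of thymidine, went from 1.71, 0.894 and 1.23 to 89.7, 63.6 and 73.2 RPKM. Ccnb2, a mitotic cyclin, went from 1.97, 1.67 and 1.88 to 102, 96.0 and 103 RPKM, a rise of 5.77 ± 0.47 (5.16 with a pseudocount of 1). In all 3 genes the lowest OVA library lay more than an order of magnitude above the highest Naive library.

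The mitotic list had the largest median change of the 53 lists. Of 49 spindle, kinetochore and cytokinesis genes 48 rose and 0 fell, with a median of 4.91 (3.46 with a pseudocount of 1) against -0.04 over all genes. Kif11, the motor that pushes spindle poles apart, stood at 1.01, 0.649 and 1.40 RPKM in Naive and at 34.2, 37.6 and 47.1 RPKM in OVA. Ube2c, the ubiquitin-conjugating enzyme of the anaphase-promoting complex, stood at 1.18, 1.13 and 2.18 RPKM and at 63.9, 66.2 and 66.7 RPKM. Espl1, the separase that cuts cohesin, stood at 0.220, 0.163 and 0.386 RPKM and at 8.30, 11.1 and 12.2 RPKM. The exception was Pttg1, the securin that holds separase inactive, which lay between 19.9 and 26.0 RPKM in Naive and between 24.2 and 28 RPKM in OVA, with overlapping groups (0.17 ± 0.12, adjusted p = 0.25). Espl1 and Pttg1 encode partners, and their transcripts differed by 5.44 and 0.17 log2 units. The list of condensin, cohesin and histone chaperone genes had 27 of 30 members higher, by a median of 1.75. Within it the condensin I gene Ncaph rose from 1.61, 1.19 and 1.58 to 26.1, 32.2 and 36.1 RPKM, while the cohesin core gene Smc3 lay at 24.0 to 26.8 and 27.7 to 39.3 RPKM (0.38 ± 0.18, adjusted p = 0.094) and Stag2 at 38.4 to 44.6 and 37.4 to 44.8 RPKM.

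Promoters of the mitotic and of the replication lists differed in how often they held certain letters. The windows below, from RefSeq on GRCm38.p6, show these letters in 3 members of each kind. They were taken as the largest rises among genes with a single window whose printed stretch held the letters, with further limits given under processing. Members with larger rises are therefore not shown. Matches were sought in 300 bases around the start (250 before and 50 after) of 7850 genes with a window, on both strands, and a gene with several starts counted once if any window matched. The cell cycle genes homology region, or CHR, which binds the DREAM and B-MYB complexes, was taken as TTTGAA or TTCGAA, the CCAAT box as CCAAT, and the E2F site as TTTCCCGC, TTTCGCGC, TTTGCCGC or TTTGGCGC. In the first 3 sequences capitals mark CHR and CCAAT letters, read as TTCAAA and ATTGG on the other strand, and in the last 3 they mark E2F letters only, with CCAAT letters left in lower case. All are written 5′ to 3′ along the gene and end at or shortly before the start.
Ube2c (chr2:164769769-164769917, plus strand): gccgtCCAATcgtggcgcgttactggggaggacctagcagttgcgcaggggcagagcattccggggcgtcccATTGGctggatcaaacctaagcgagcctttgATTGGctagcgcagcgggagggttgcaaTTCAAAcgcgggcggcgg
Espl1 (chr15:102296133-102296285, plus strand): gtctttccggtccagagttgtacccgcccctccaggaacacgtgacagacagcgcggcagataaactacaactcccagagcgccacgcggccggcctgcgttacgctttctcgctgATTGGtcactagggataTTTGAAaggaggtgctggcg
Kif11 (chr19:37376222-37376381, plus strand): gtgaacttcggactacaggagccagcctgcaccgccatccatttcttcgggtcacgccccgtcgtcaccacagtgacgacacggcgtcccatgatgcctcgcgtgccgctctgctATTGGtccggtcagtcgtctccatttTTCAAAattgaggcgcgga
Orc1 (chr4:108579294-108579442, plus strand): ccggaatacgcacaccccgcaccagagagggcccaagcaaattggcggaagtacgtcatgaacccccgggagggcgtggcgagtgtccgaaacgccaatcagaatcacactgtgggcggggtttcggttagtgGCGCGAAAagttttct
Mcm5 (chr8:75109349-75109508, plus strand): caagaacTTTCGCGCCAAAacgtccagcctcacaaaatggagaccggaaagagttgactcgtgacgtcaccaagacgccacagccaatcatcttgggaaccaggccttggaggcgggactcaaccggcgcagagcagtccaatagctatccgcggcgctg
Pola1 (chrX:93632156-93632315, minus strand): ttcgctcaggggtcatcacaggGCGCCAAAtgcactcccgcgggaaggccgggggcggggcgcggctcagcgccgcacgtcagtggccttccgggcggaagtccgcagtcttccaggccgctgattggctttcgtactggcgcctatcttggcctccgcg

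CHR letters were present in 32 of 45 spindle-list promoters (71.1%) against 16.7% of all 7850, and CHR with CCAAT in 60% against 8.46%. The split between lists was not clean. Licensing promoters held CHR letters in 31.6% and CHR with CCAAT in 21.1%, and fork promoters in 13% and 8.7%. Promoters of the condensin, cohesin and histone chaperone list held CHR letters in 40% and E2F letters in 28%. CCAAT alone did not separate the lists, with 75.6% of spindle, 68.4% of licensing and 56.5% of fork promoters against 43.8% of all. E2F letters were present in 1 of the same 45 promoters (2.22%), but in 9 of 19 licensing promoters (47.4%) and in 34.8% of 23 fork promoters, against 5.26% of all. Read the other way, 42.4% of the 413 genes with E2F letters rose, against 23.2% of those without, and 30% of the 1313 genes with CHR letters, against 23.1%. Of CHR-bearing genes 7.24% rose by at least 4-fold, against 2.23% of genes without the letters. The same shares were 10.4% against 2.66% for E2F letters, and 10.2% against 2.41% for CHR with CCAAT. A CHR match is short and common, and interferon-stimulated genes, which as a group were lower, held it in 36.1% of 36 promoters. These shares are descriptions of letters in a window and do not show that a factor was bound.

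**Figure D2:**
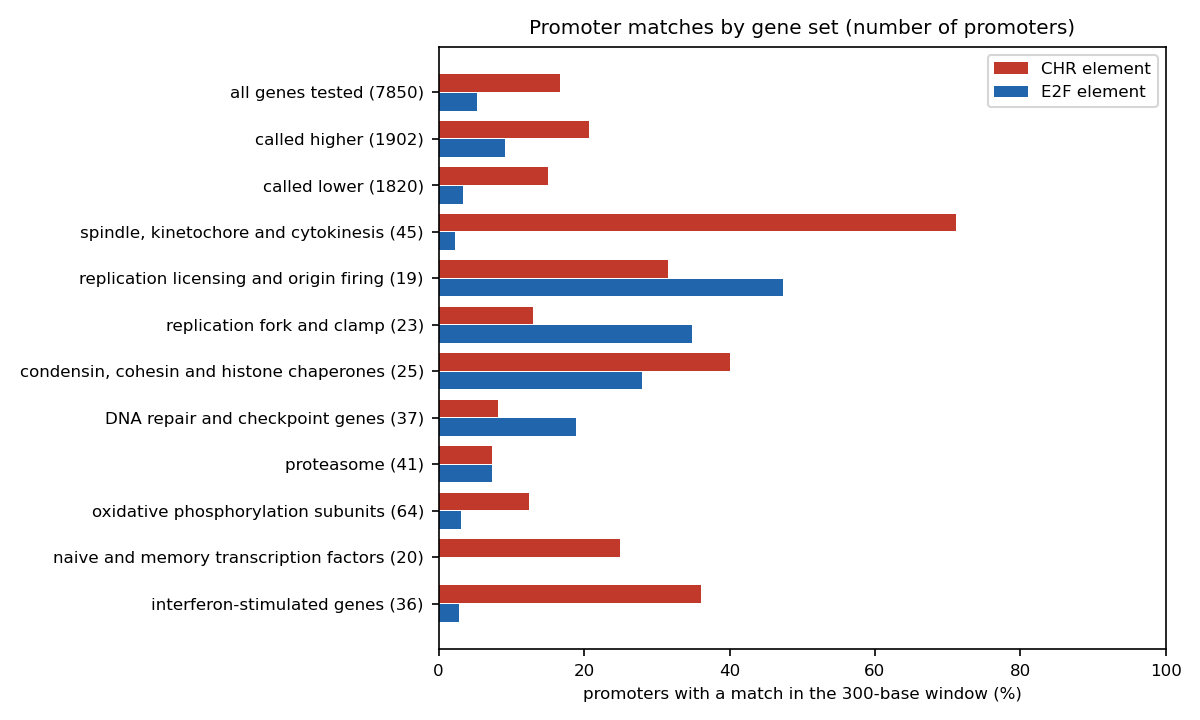
Share of promoters with CHR letters (red) and E2F letters (blue) in the 300-base RefSeq window, by gene set, with the number of promoters in brackets. The spindle list has the highest CHR share (71.1%) with an E2F share of 2.22%, and the licensing list has the highest E2F share (47.4%).

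Replication genes rose by smaller list medians than the mitotic list. Of 26 licensing and origin-firing genes 23 rose (median 2.00). All 28 fork and clamp genes rose (median 2.16), 27 of them without OVA replicate 1. Members varied, and Mcm10 (5.44 ± 0.49) and Clspn (4.66 ± 0.55) rose as much as many mitotic genes. Mcm5, a subunit of the replicative helicase, stood at 17.5, 20.3 and 18 RPKM in Naive and at 134, 142 and 151 RPKM in OVA (2.94 ± 0.15). Orc1, the largest subunit of the origin recognition complex, was at 0.264, 0.334 and 0.244 RPKM and at 9.14, 5.36 and 7.44 RPKM (4.68 ± 0.36, or 2.67 with a pseudocount of 1), while Orc4 (0.27 ± 0.20) and Orc5 (0.22 ± 0.10) of the same complex did not pass the test. Pola1, the catalytic subunit of DNA polymerase alpha, went from 3.04, 2.96 and 3.27 to 14.8, 16.7 and 22.1 RPKM.

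Most cyclin and E2F genes rose. Of 30 E2F, cyclin and CDK genes 23 rose and 2 fell. Ccna2 (1.54 to 2.15 RPKM in Naive, 92.4 to 106 RPKM in OVA) and Mybl2 (0.308 to 0.435 and 14.9 to 20.2 RPKM), which encodes the B-MYB activator of mitotic genes, were among the risen. The D-type cyclin Ccnd2, which acts at the entry into the cycle, fell from 112, 141 and 104 to 49.4, 52.5 and 48.3 RPKM (-1.24 ± 0.15), and Ccnd3 lay at 102 to 130 and 131 to 143 RPKM (0.29 ± 0.12, adjusted p = 0.059). Of 20 CDK inhibitors and quiescence genes 11 fell and 2 rose. Btg1, an antiproliferative factor of resting lymphocytes, fell from 204, 223 and 220 to 83.7, 99.0 and 78.7 RPKM, and Txnip, a brake on glucose uptake, from 161, 212 and 203 to 78.2, 86.7 and 75.4 RPKM. The 2 risen members, Cdkn2c and Cdkn2d, both encode INK4 inhibitors of CDK4 and CDK6. Cdkn2c rose from 3.36, 2.68 and 2.67 to 14.9, 17.2 and 17.5 RPKM (2.52 ± 0.24), and Cdkn2d from 56.7, 45.9 and 54.4 to 64.3, 64.8 and 62.4 RPKM (0.29 ± 0.10), a call lost in 5 alternatives, among them those without OVA replicate 1 or 2 or Naive replicate 2.

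Nucleotide supply and repair genes rose with replication. Of 32 nucleotide synthesis genes 22 rose and 3 fell, and the subunits of ribonucleotide reductase, Rrm1 (10.8 to 11.9 RPKM in Naive, 95.2 to 124 RPKM in OVA) and Rrm2 (3.40 to 4.90 and 146 to 176 RPKM), were both higher in every OVA library. Samhd1, which degrades deoxynucleotides, fell from 112, 126 and 140 to 73.0, 95.2 and 90.7 RPKM (-0.55 ± 0.14). Of 47 DNA repair and checkpoint genes, 32 were called higher and 3 lower. Among the fallen was Xpc, which senses bulky lesions for excision repair, and which went from 8.98, 11.2 and 10.1 to 6.09, 5.86 and 5.71 RPKM (-0.77 ± 0.18). Trp53 lay at 92.8 to 118 and 91.2 to 94.0 RPKM (-0.13 ± 0.11, adjusted p = 0.35).

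**Figure D3:**
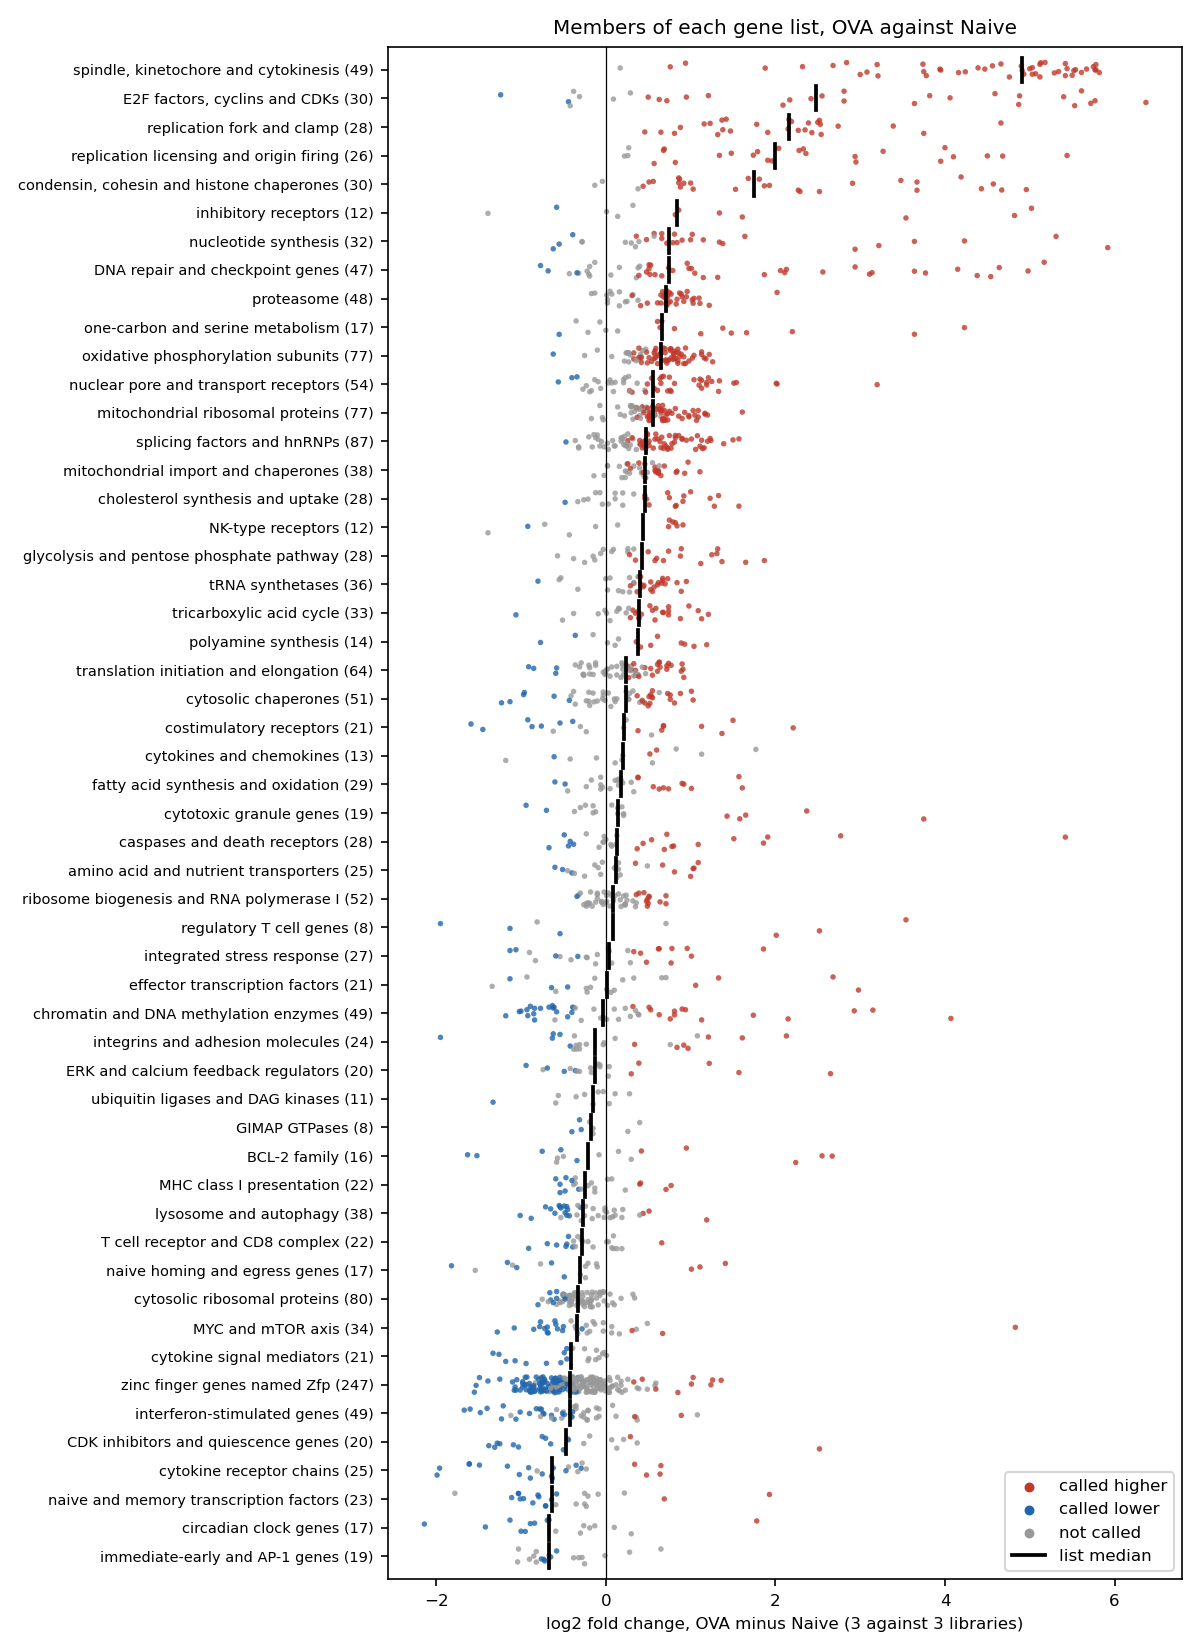
Log2 fold change of each tested member of the 53 lists (OVA minus Naive, 3 against 3 libraries), with members called higher in red, called lower in blue and not called in grey, and the list median as a black bar. The lists are ordered by median, from 4.91 for the spindle list to -0.67 for the immediate-early and circadian lists.

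Chromatin enzymes changed in both directions. Of 49 chromatin and DNA methylation enzymes 15 rose (30.6%, beside 24.4% of all genes) and 18 fell (36.7%, beside 23.1%). The risen members included those that copy marks at the fork, namely Uhrf1 (5.76 to 6.68 RPKM in Naive, 83.4 to 123 RPKM in OVA), Dnmt1 (21.5 to 28.4 and 66.6 to 96.0 RPKM) and Ezh2, the methyltransferase of Polycomb complex 2 (7.04 to 8.08 and 61.7 to 76.5 RPKM). Whsc1, a methyltransferase of histone H3 in active genes, rose too (3.10 to 3.84 and 19.9 to 30.9 RPKM). Among the fallen were both enzymes that write and enzymes that remove active marks, with the methyltransferase Kmt2c at 13.7, 12.6 and 12.2 against 4.91, 6.47 and 5.68 RPKM (-1.18 ± 0.18), the acetyltransferase Crebbp at 21.1, 20.2 and 19.0 against 8.98, 12.5 and 10.4 RPKM (-0.93 ± 0.16) and the demethylase Kdm5b at 9.69 to 12.6 against 4.95 to 5.78 RPKM (-1.0 ± 0.16). Among 247 zinc finger genes named Zfp, 106 were lower and 9 higher, with a median of -0.42. The lower count was 93 without OVA replicate 1 and 64 without OVA replicate 3. Zfp318 went from 13.6, 11.8 and 13.5 to 5.06, 4.98 and 4.79 RPKM.

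Surface receptors changed in both directions. Of 12 genes tested in the list of inhibitory receptors, which also counts the ligand gene Cd200, 7 rose and 1 fell. These are 58.3% and 8.33%, beside 24.4% and 23.1% of all genes. Without OVA replicate 1, 5 rose. Lag3, which binds MHC class II (chr6:124904361-124911705, GRCm38), stood at 0.793, 0.492 and 0.653 RPKM in Naive and at 17.9, 22.6 and 21.8 RPKM in OVA, and Pdcd1, which encodes PD-1, at 0.294, 0.378 and 0.421 and at 11.6, 9.17 and 9.98 RPKM. With a pseudocount of 1 these rises were 3.72 and 3.04 in place of 5.02 and 4.82. Cd96, a receptor of the same nectin network as Tigit, fell from 120, 111 and 111 to 76.7, 77.0 and 74.1 RPKM (-0.58 ± 0.16). Cd5 (122 to 143 and 124 to 137 RPKM) and Btla (13 to 16.6 and 12.7 to 21.4 RPKM) overlapped between groups, and so did Klrg1, a marker of terminal effector cells (3.34 to 7.75 and 0.952 to 3.89 RPKM). The other risen members were Ctla4 (1.36 to 4.38 and 20.4 to 30.8 RPKM), Tigit, Cd200, Lair1 and Cd160 (16.2 to 21.1 and 28.7 to 42.1 RPKM), and the call of Cd160 was lost without OVA replicate 1 or Naive replicate 2. Costimulatory receptors and ligands rose in 8 and fell in 7 of 21 cases (38.1% and 33.3%, beside 24.4% and 23.1% of all genes). Slamf6 rose from 33.4, 31.2 and 28.9 to 82.9, 75.5 and 82.5 RPKM, and Cd40lg, the ligand for CD40, fell from 9.76, 9.35 and 7.34 to 2.68, 3.19 and 2.89 RPKM.

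**Figure D4:**
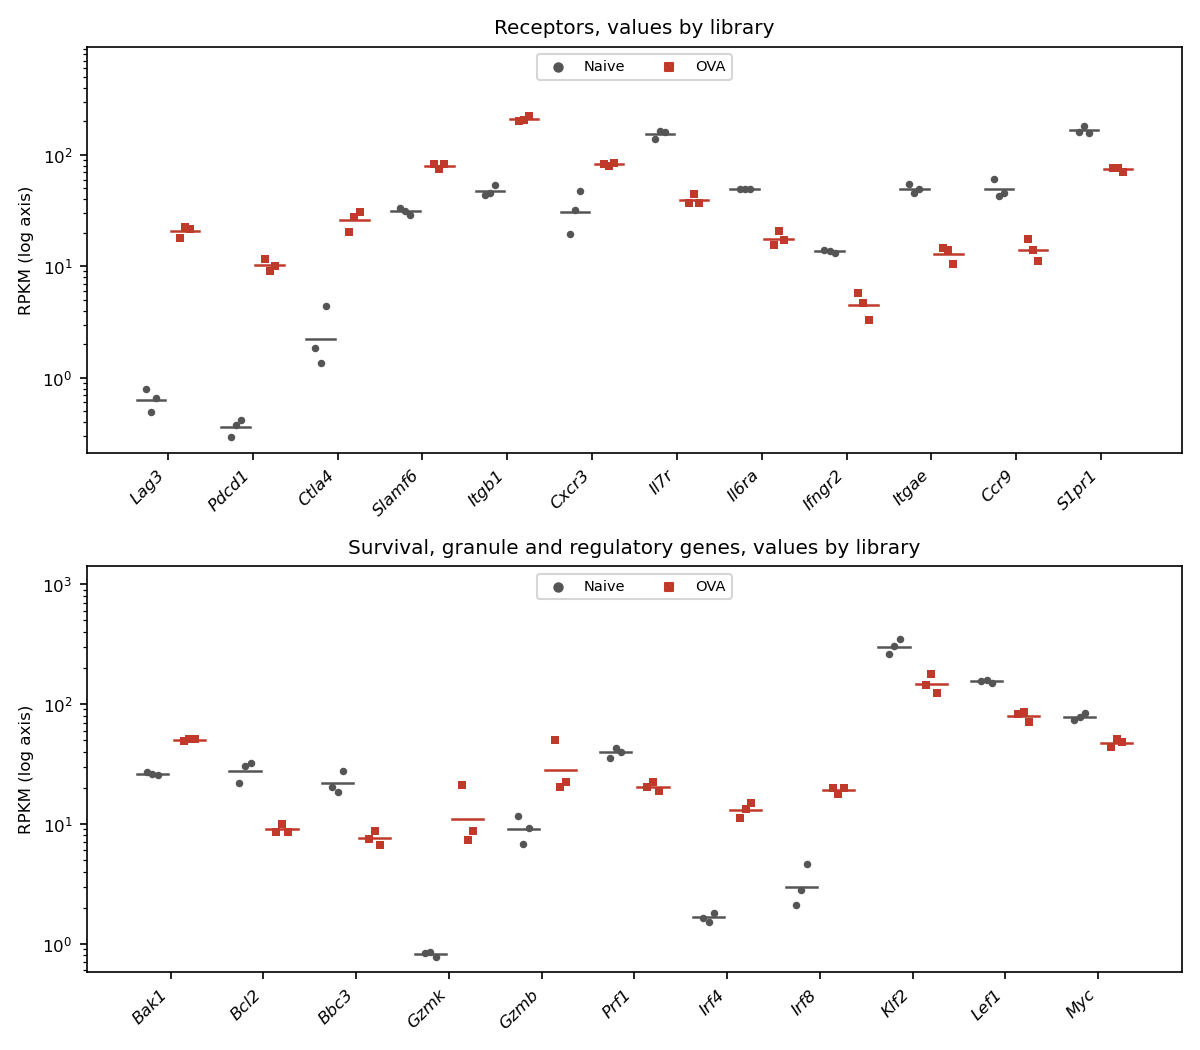
RPKM on a log axis in each Naive (grey circles) and OVA library (red squares) for 23 genes, with the geometric mean of each group as a line. Groups do not overlap for any of the genes drawn, and Gzmk and Gzmb show OVA replicate 1 above the other OVA libraries.

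Cytokine receptors were lower as a group. Of 25 chains tested 16 fell and 4 rose, with a median of -0.63, and without OVA replicate 1 the counts were 13 and 3, beside 18.9% and 21.1% of all genes in that fit. Il7r, the chain specific for interleukin-7 (chr15:9505788-9530176, GRCm38), fell from 139, 164 and 161 to 37.0, 44.7 and 37.4 RPKM (-1.96 ± 0.21, adjusted p = 7.9e-06). Il6ra fell from 49.8, 49.8 and 49.4 to 15.4, 20.8 and 17.1 RPKM, and its signalling partner Il6st from 136, 127 and 114 to 69.7, 72.8 and 81.4 RPKM. Receptors for interferon gamma fell in both chains, Ifngr1 from 263, 287 and 286 to 148, 156 and 142 RPKM and Ifngr2 from 14.1, 13.7 and 13.1 to 5.81, 4.66 and 3.27 RPKM. Tgfbr2, the ligand-binding chain for TGF-beta, fell from 79.6, 87.0 and 74.9 to 35.1, 45.1 and 39.3 RPKM. The common gamma chain Il2rg fell too (446 to 473 and 287 to 308 RPKM), whereas Il2rb, its partner for interleukin-2 and interleukin-15, rose from 142, 183 and 215 to 230, 307 and 301 RPKM (0.64 ± 0.17), a call lost with quantile normalization. The high-affinity chain Il2ra was at 0.987, 2.16 and 1.59 RPKM in Naive and at 0.842, 0.764 and 0.969 RPKM in OVA (-0.81 ± 0.40, adjusted p = 0.11).

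Of 21 cytokine signal mediators 10 fell and 0 rose (6 fell without OVA replicate 1 or without Naive replicate 2). Socs1, a feedback inhibitor of cytokine signalling, fell from 14.4, 18.2 and 17.9 to 7.21, 8.08 and 6.90 RPKM, and Smad7, an inhibitor of TGF-beta signalling, fell from 52.7, 57.4 and 64.7 to 21.4, 28.6 and 20.1 RPKM. The kinases and the transcription factor Jak3 (-0.04 ± 0.17) and Stat4 (0.01 ± 0.15) did not pass the test.

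Few genes of antigen receptor signalling were called higher. Among 22 T cell receptor and CD8 genes 7 fell (31.8%, beside 23.1% of all genes) and 1 rose (4.55%, beside 24.4%), and 14 fell with quantile normalization or 12 with array weights. Cd8b1 fell from 1038, 960.1 and 1048 to 758.9, 761.7 and 679.6 RPKM (-0.47 ± 0.11). Cd28 was the risen member (32.4 to 35.5 and 49.2 to 62.6 RPKM). Of 19 immediate-early and AP-1 genes 5 fell (26.3%) and 0 rose (3 fell without OVA replicate 1 or Naive replicate 3, and 10 when the OVA and Naive libraries alone were fitted). Fos stood at 188, 132 and 418 RPKM in Naive and at 48.0, 220 and 166 RPKM in OVA, and Junb at 278, 251 and 590 and at 105, 309 and 194 RPKM, so replicates of 1 group differed more than the group means. Myc, the driver of growth in newly activated T cells, was lower and did not overlap, at 73.5, 77.6 and 83.8 against 43.5, 51.2 and 47.9 RPKM (-0.72 ± 0.21, adjusted p = 0.011). Among feedback regulators the ERK phosphatase Dusp4 rose from 0.831, 0.623 and 1.42 to 3.30, 7.10 and 7.71 RPKM, and the ubiquitin ligase Peli1 fell from 87.5, 88.8 and 78.1 to 35.3, 34.5 and 31.5 RPKM (-1.33 ± 0.11).

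Transcription factors of the resting and memory state were lower, with some of the most abundant ones not called. Of 23 such factors 12 fell and 2 rose. Klf2, which drives the genes of recirculation, fell from 259, 306 and 345 to 144, 178 and 124 RPKM, Lef1 from 156, 157 and 150 to 82.2, 85.4 and 70.6 RPKM, and Bach2, a repressor of effector fate, from 12.8, 15.8 and 13.8 to 5.87, 7.47 and 7.44 RPKM. Tcf7, which encodes TCF-1, stood at 677, 742 and 764 RPKM in Naive and at 526, 720 and 634 RPKM in OVA, with overlapping groups (-0.23 ± 0.15, adjusted p = 0.22). Myb rose from 2.77, 3.30 and 4.22 to 11.3, 13.3 and 14.1 RPKM (1.93 ± 0.21). Lef1 and Tcf7 encode related factors, and their log2 changes were -0.97 and -0.23. Of 21 effector factors 4 rose and 3 fell, a share under the background in both directions, and 7 rose and 6 fell with array weights. Irf4, induced by receptor signalling, rose from 1.64, 1.53 and 1.82 to 11.1, 13.3 and 15.1 RPKM, and Tbx21, which encodes T-bet, from 13.4, 13.7 and 17.2 to 37.9, 28.9 and 26.4 RPKM. Eomes lay at 20.1, 26.0 and 33.0 and at 36.3, 41.6 and 45 RPKM (0.66 ± 0.36, adjusted p = 0.15).

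Homing and adhesion genes followed no single direction. Of 17 homing and egress genes 5 fell (29.4%) and 3 rose, with 3 falls without OVA replicate 2 or 3 or Naive replicate 1 or 2 and 9 with array weights. S1pr1, the receptor for exit from lymphoid organs, fell from 161, 182 and 158 to 76.8, 76.8 and 70.5 RPKM, Ccr9, a receptor for gut homing, from 60.5, 43.2 and 46.0 to 17.6, 14.1 and 11.1 RPKM, and Ccr7 from 202, 183 and 202 to 130, 133 and 113 RPKM. The inflammatory chemokine receptor Cxcr3 rose from 19.6, 32.1 and 47.5 to 83.0, 80.2 and 84.0 RPKM. Of 24 integrins and adhesion molecules 7 rose (29.2%) and 5 fell (20.8%), near the background, with 9 falls with quantile normalization and 3 without OVA replicate 3 or Naive replicate 1. Itgb1, the beta-1 chain (chr8:128685654-128733200, GRCm38), rose from 43.6, 45.9 and 54.0 to 200, 206 and 223 RPKM (2.13 ± 0.21), and its partner Itga4 from 34.7, 32.4 and 27.5 to 51.2, 61.7 and 66.2 RPKM. Itgae, the CD103 chain, fell from 55.4, 45.7 and 49.2 to 14.7, 13.9 and 10.5 RPKM (-1.95 ± 0.31), while its partner Itgb7 overlapped between groups (282 to 305 and 230 to 295 RPKM). Cd44, the hyaluronan receptor of antigen-experienced cells, rose from 17.4, 22.7 and 26.6 to 38.4, 44.0 and 46.6 RPKM.

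Of 19 granule genes 5 rose (26.3%, near the background) and 2 fell, and with quantile normalization 6 fell. The risen members were Gzmb, Gzmk, Serpinb6b, Serpinb9 and Stx11, and the fallen ones Prf1 and Ctsw. Gzmk stood at 0.837, 0.852 and 0.781 RPKM in Naive and at 20.9, 7.39 and 8.73 RPKM in OVA, and Gzmb at 11.6, 6.81 and 9.24 and at 50.4, 20.3 and 22.2 RPKM. OVA replicate 1 was the highest library for both, and the groups did not overlap without it. Prf1, which encodes perforin, fell from 35.5, 42.8 and 40.1 to 20.3, 22.5 and 18.8 RPKM (-0.94 ± 0.20). The other granzymes tested overlapped widely, Gzma at 87.7, 42.7 and 55.5 and at 115, 41.0 and 32.0 RPKM and Gzmm at 9.62 to 33.0 and 16 to 19.6 RPKM. Serpinb6b and Serpinb9, inhibitors of granule proteases, rose to 62.0 to 85.8 and 15.9 to 35.8 RPKM, from 12.5 to 13.9 and 6.54 to 9.58 RPKM. Ifng, the effector cytokine, was at 3.51, 2.09 and 10.1 RPKM in Naive and at 6.95, 20 and 21.0 RPKM in OVA (1.77 ± 0.78, adjusted p = 0.076), and the call was made in 5 alternatives, among them those without OVA replicate 1 and without Naive replicate 3. Receptors of the NK type rose in 6 of 12 cases, but in 2 without OVA replicate 1.

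Single survival genes changed on both sides of the balance. Of 16 BCL-2 family members 5 rose and 5 fell (31.25% each), not far from the 24.4% and 23.1% of all genes. With the correction for gene length and GC content 3 rose. Bcl2, which protects resting cells, fell from 22.1, 30.5 and 32.0 to 8.57, 10.0 and 8.48 RPKM (-1.63 ± 0.18). Bbc3, which encodes the killer protein PUMA, fell as well, from 20.2, 18.5 and 27.6 to 7.51, 8.67 and 6.71 RPKM (-1.52 ± 0.35). The prosurvival A1 genes Bcl2a1a, Bcl2a1b and Bcl2a1d rose by 2.67, 2.24 and 2.55, but they are near-identical copies among which reads may be split, so their separate values are uncertain. Bak1, a pore-forming effector, rose from 27.0, 26.0 and 25.4 to 49.3, 50.8 and 51.1 RPKM, whereas its partner Bax overlapped between groups (48.7 to 60.9 and 58.1 to 68.7 RPKM). Of 28 genes of caspases and death receptors 13 rose (46.4%) and 5 fell (17.9%). The falls were 3 without OVA replicate 1 or 3 or Naive replicate 2 or 3. The necroptosis genes Ripk3 (17.2 to 17.5 and 36.7 to 36.9 RPKM) and Mlkl (0.284 to 0.435 and 0.991 to 1.74 RPKM) rose together, and the initiator Casp8 lay at 42 to 44.5 and 39.8 to 47.3 RPKM. Birc5, counted in this list as survivin, is also a mitotic gene and had the largest rise of the list (5.42 ± 0.44).

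Energy metabolism rose broadly and by small amounts. Of 77 oxidative phosphorylation subunits 58 rose and 1 fell, by a median of 0.65, and without OVA replicate 1 the counts were 39 and 1. Cox5b, of complex IV, went from 141, 118 and 132 to 405, 271 and 252 RPKM, with OVA replicate 1 on top. The fallen member, Cox7a2l, lay at 445 to 574 and 284.8 to 391.5 RPKM, a call lost without OVA replicate 3 or Naive replicate 1 or 3. Mitochondrial ribosomal proteins rose in 50 of 77 cases (40 without OVA replicate 1), mitochondrial import genes in 20 of 38 (14 without OVA replicate 1, 13 without Naive replicate 3) and tricarboxylic acid cycle genes in 21 of 33. Of 28 glycolysis and pentose phosphate genes, 16 were called higher and 0 lower. Ldha, which makes lactate, rose from 364, 346 and 352 to 1003, 788 and 856 RPKM, and Tpi1, triose phosphate isomerase, from 40.7, 48.6 and 49.2 to 159, 164 and 181 RPKM. Hk1, the first enzyme of the pathway, did not pass the test (-0.06 ± 0.15). Cholesterol synthesis and uptake genes rose in 15 of 28 cases, such as Cyp51 (4.38 to 5.57 and 11.3 to 13.8 RPKM), although the regulator Srebf2 lay at 43.1 to 47.3 and 36.2 to 51.8 RPKM (-0.07 ± 0.17). Serine and one-carbon enzymes rose in 11 of 17 cases, with Psat1 going from 22, 18.9 and 19.1 to 112, 76.6 and 88.6 RPKM.

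Protein-making genes did not rise as 1 block. None of 80 cytosolic ribosomal protein genes, among the most abundant transcripts, was called higher and 10 were called lower, with a list median of -0.33. Their count of falls was 20 without OVA replicate 1, 1 without OVA replicate 3 or Naive replicate 3, 24 with quantile normalization, 56 with array weights and 45 with a correction for gene length and GC content, and many of them have near-identical pseudogenes. Rpl23 lay at 2059 to 2410 RPKM in Naive and 1314 to 1577 RPKM in OVA. Ribosome biogenesis genes rose in 12 of 52 cases (23.1%, near the background), and Fbl, the rRNA methylase, lay at 160 to 164 and 178 to 201 RPKM (0.22 ± 0.13, adjusted p = 0.16). In contrast tRNA synthetases rose in 23 of 36 cases (15 with quantile normalization), splicing factors in 53 of 87 (35 with quantile normalization), nuclear pore and transport genes in 32 of 54 and proteasome genes in 35 of 48 (32 without OVA replicate 1). Gars went from 46.4, 52.4 and 51.8 to 83.5, 90.4 and 96.0 RPKM. The proteasome ATPase Psmc1 went from 55.3, 53.3 and 49.2 to 121, 94.0 and 110 RPKM, whereas the interferon-induced activator genes Psme1 (362 to 414 and 333 to 396 RPKM) and Psme2 (258 to 330 and 255 to 377 RPKM) overlapped between groups. Of 27 genes of the integrated stress and unfolded protein responses 10 rose (37%) and 4 fell (14.8%), with 1 fall without OVA replicate 1 or Naive replicate 1 and 7 with the correction for gene length and GC content. The secretory cofactor Sdf2l1 stood at 13.3, 13.2 and 14.6 against 62.3, 43.0 and 46.4 RPKM, whereas the chaperone Dnajb9 lay at 16.9 to 31.6 and 7.30 to 14.5 RPKM, a fall whose call was lost without OVA replicate 1 or 3 or Naive replicate 1 or 3, and Ern1, the stress sensor IRE1, fell from 4.74, 4.72 and 4.82 to 2.95, 2.16 and 1.88 RPKM.

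Growth signalling genes were lower more often than higher. Of 34 genes of the MYC and mTOR axis 15 fell and 3 rose. Pik3ip1, an inhibitor of PI3K signalling, fell from 71.8, 64.9 and 63.7 to 28.9, 31.5 and 22.9 RPKM. Rictor, the scaffold of mTORC2, fell from 14.1, 13.3 and 11.1 to 6.19, 5.95 and 6.04 RPKM. Mxd3, a MAX partner expressed in cycling cells, rose from 0.946, 0.953 and 0.848 to 33.0, 22.5 and 23.9 RPKM (4.83 ± 0.58). Odc1, the first enzyme of polyamine synthesis and a classical MYC target, rose from 31.1, 26.4 and 42.3 to 76.5, 69.7 and 76.8 RPKM, against the direction of Myc itself.

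Interferon-stimulated and clock genes were called lower more often than higher. Of 49 interferon-stimulated genes 20 fell and 2 rose, and 12 fell without OVA replicate 2. Oasl1 fell from 2.92, 4.99 and 3.84 to 1.53, 1.10 and 1.18 RPKM, Slfn5 from 11.5, 14.7 and 11.9 to 5.10, 4.84 and 6.28 RPKM, and the guanylate-binding protein gene Gbp7 from 18.2, 19.7 and 16.5 to 8.27, 8.56 and 9.35 RPKM. Of 22 genes of class I presentation 7 fell (31.8%, beside 23.1% of all genes) and 4 rose (18.2%, beside 24.4%). Without OVA replicate 1 or 3 or Naive replicate 1 or 3, 2 to 3 fell. Tapbp, which loads peptide, fell from 178, 172 and 168 to 115, 126 and 114 RPKM. Of 17 circadian genes 9 fell and 1 rose. Nr1d1 fell from 2.02, 3.34 and 3.75 to 0.394, 1.2 and 0.627 RPKM, Nr1d2 from 8.18, 7.13 and 10.4 to 3.33, 3.29 and 2.88 RPKM, and their activator Arntl from 7.51, 7.14 and 6.22 to 3.79, 3.86 and 3.56 RPKM. The risen member was Timeless (4.87, 5.09 and 4.55 against 13.4, 17.9 and 19.0 RPKM), which in mammals also acts at the replication fork. Autophagy and lysosome genes fell in 15 of 38 cases, Ulk2 from 11.1, 12.2 and 12.5 to 5.34, 7.68 and 6.67 RPKM. In these bulk libraries, fewer cells of a state and less RNA per cell cannot be told apart.

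The same OVA libraries were compared directly with the erythrocyte-targeted groups. ERY1-OVA holds the same protein in targeted form. TER119-SIINFEKL holds the peptide, so antigen form and targeting cannot be told apart in that comparison. Against ERY1-OVA, 104 genes (1.06%) were called, 64 higher and 40 lower in OVA, and against TER119-SIINFEKL 148 genes (1.51%), 59 higher and 89 lower. These comparisons share the OVA libraries with the comparison to Naive. The first was fragile, since leaving out any 1 library of either group left 0 to 15 calls, and in the second 45 to 101 were left. Of the 240 genes of cell cycle, repair and nucleotides, 4 and 2 were called, which does not show that the groups were equal in this respect. Igfbp4 was higher in OVA than in both targeted groups (1.67 ± 0.36, adjusted p = 0.046, and 2.88 ± 0.36, adjusted p = 0.0018), at 99.5 to 112 RPKM in Naive, 19.4 to 30.9 in OVA, 7.75 to 9.04 in ERY1-OVA and 1.54 to 5.82 RPKM in TER119-SIINFEKL. Gzmk was higher after OVA (7.39 to 20.9 RPKM) than after ERY1-OVA (1.94 to 4.75 RPKM; 1.81 ± 0.38, adjusted p = 0.041) or TER119-SIINFEKL (2.08 to 3.87 RPKM; 1.96 ± 0.38, adjusted p = 0.023). Il7r lay at 37.0 to 44.7 RPKM in OVA and at 9.12 to 16.8 RPKM in TER119-SIINFEKL (1.55 ± 0.21, adjusted p = 0.0028), and 19.1 to 29.3 RPKM in ERY1-OVA (0.67 ± 0.21, adjusted p = 0.12).

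Egr2, Ikzf2 and Folr4 were lower after soluble OVA than in both targeted groups. Egr2, a transcription factor linked to anergy, was at 2.62 to 2.99 RPKM in OVA, near the 3.09 to 3.88 RPKM of Naive, and at 5.85 to 7.36 RPKM in ERY1-OVA (-1.23 ± 0.14, adjusted p = 0.0064) and 11.7 to 15.2 RPKM in TER119-SIINFEKL (-2.21 ± 0.14, adjusted p = 4.5e-06). Ikzf2, which encodes Helios, was at 3.65 to 4.25 RPKM in OVA, 11.2 to 12.1 RPKM in ERY1-OVA and 8.68 to 14.3 RPKM in TER119-SIINFEKL (adjusted p = 0.03 and 0.02). Folr4, the folate receptor 4 gene, rose after OVA to 30.5 to 34.8 RPKM from 6.79 to 10.1 RPKM in Naive, and reached 84.1 to 89.3 and 110.5 to 167 RPKM in the targeted groups (adjusted p = 0.03 and 0.0018). The inhibitory receptor ligand gene Cd200 was at 8.93 to 9.86 RPKM in OVA, 25.7 to 28 RPKM in ERY1-OVA (adjusted p = 0.084 for the difference) and 45.1 to 51.2 RPKM in TER119-SIINFEKL (-2.39 ± 0.42, adjusted p = 0.012). The chemokine gene Xcl1 was at 30.8 to 36.1 RPKM in OVA, 60.4 to 91.8 RPKM in ERY1-OVA (-1.17 ± 0.33, adjusted p = 0.096, not called) and 173 to 362 RPKM in TER119-SIINFEKL (-2.92 ± 0.33, adjusted p = 0.00091). For Egr2, Ikzf2 and Folr4 the OVA libraries lay below every library of both targeted groups. This adds no support to the calls, because the genes were called on the same values.

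**Figure D5:**
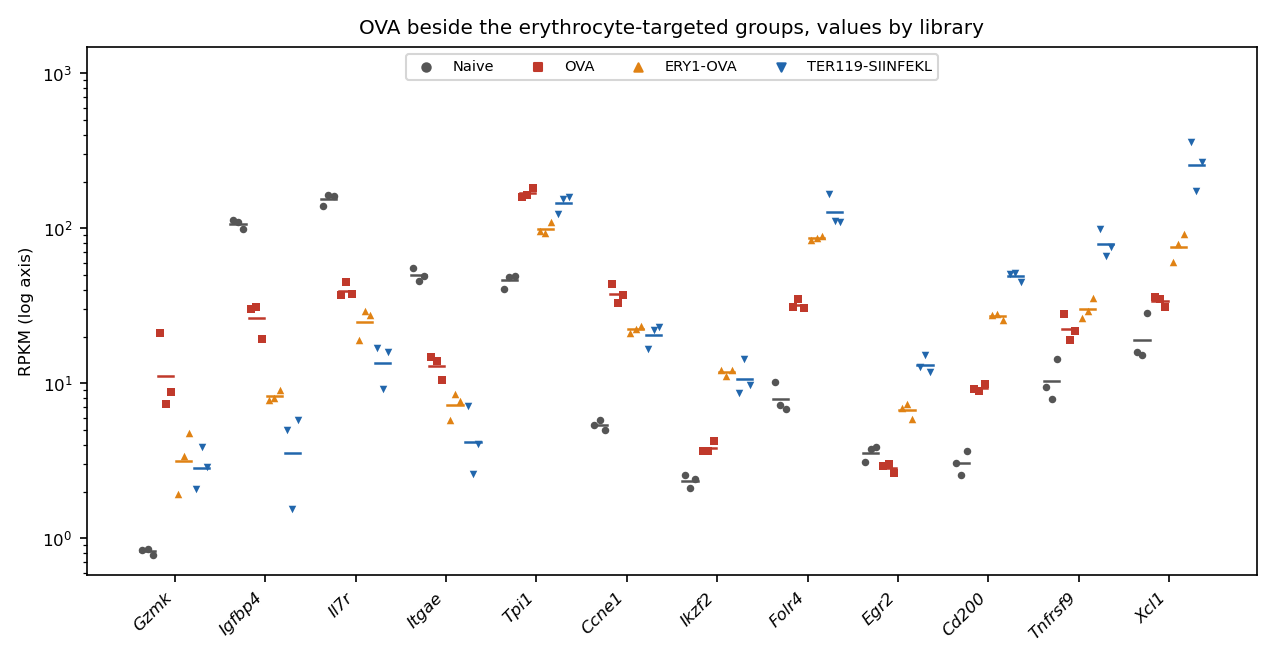
RPKM on a log axis by library for 12 genes in Naive, OVA, ERY1-OVA and TER119-SIINFEKL (3 libraries each), with geometric means as lines. OVA lies between Naive and the targeted groups for Igfbp4, Il7r, Itgae, Ikzf2, Folr4, Cd200 and Xcl1, and above the targeted groups for Gzmk.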

How the data were processed

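The authors deposited log2 RPKM values for 10106 genes in 14 libraries, and these were used without change. The submitters' processing notes list STAR (2.4.2), bcl2fastq (2.17.1.14) and edgeR as tools and mm10 and GRCm38 as builds. The counter, annotation, gene lengths and prior count are not given in the sources used here. Base 2 was read from the values, since RPKM times exon length in kilobases then summed to 1763893 to 2042615 per library. Without counts the depth is unknown and no counting interval was computed. Folds of genes near or under 1 RPKM in 1 group depend on the prior count. Genes with a mean of at least 1 RPKM over all libraries were kept (9793, with 313 removed).

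One linear model per gene, with a mean for each of the 5 groups, was fitted in limma (3.58.1, R 4.3.3) with trended moderation, which left 9 residual and 4.6 prior degrees of freedom. Standard errors and p-values therefore used a spread pooled over all 14 libraries. The SD within a group was 0.416 in the group named SIINFEKL, 0.231 in Naive and 0.226 in OVA. With only the OVA and Naive libraries fitted, 5014 genes were called. Two-sided p-values were adjusted by Benjamini-Hochberg over all genes tested and called under 0.05. In data simulated for OVA against Naive over 9793 genes, 67, 67 and 66 genes were changed by 0.5, 1 and 2 on the log2 scale. The fit recovered 22.4% of genes changed by 0.5, 77.6% at 1 and 98.5% at 2, with 13 false calls. The adjustment is stricter when few genes change. These shares therefore do not give the recovery in the data, where 4659 genes were called.

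The members and the 53 gene lists were chosen with earlier results of these data known. Named genes were, per list, up to 5 called members per direction with the largest change and no overlap between groups and up to 3 abundant members not called, plus a core set, the 10 largest rises and falls and the 5 most abundant changes per direction. Arntl, Egr2, Fam211b, Gbp7, Gzmm, Ifngr1, Il2rg, Il6st, Ripk3, Tgfbr2, Tigit and Xcl1 fell outside that rule and were chosen after their values were seen. The 6 genes with printed promoters were the largest rises among genes with a single window whose stretch held the letters. The choice also passed over the genes of a single chromosome, and stretches were cut where they ran into the gene. Promoter windows are from RefSeq (GRCm38.p6), found for 7850 genes, and gene positions from GENCODE on GRCm38, matched for 10027 genes (79 had no match).

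The alternatives changed the scaling (quantile, median of ratios, array weights, a gene length and GC correction), the pseudocount (0.1 and 1), the filter (none, 3 RPKM), the moderation (robust, without the trend), the groups fitted, the libraries (each left out in turn), a 2-fold minimum and the use of replicate numbers as a block. Tables and figures were made in Python (3.11.15) with numpy (2.4.6), pandas (2.3.3) and matplotlib (3.10.9).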

Additional observations from a re-analysis of the deposited data

How the results depend on the processing

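Of 364 named genes called in OVA against Naive, 292 kept the call in every alternative in which they were tested, 0 of 517 named genes reversed, and 83 named genes that were not called passed in at least 1 alternative. The total of 4659 calls was 1083 with a requirement of a 2-fold change (759 higher and 324 lower), and 3775 to 4332 when 1 library was left out, with 3747 calls shared with and without OVA replicate 1. Against ERY1-OVA the 104 calls were 70 with quantile normalization, 69 with the replicate block and 0 to 15 when 1 library was left out, of which 0 came without ERY1-OVA replicate 1 and 15 without ERY1-OVA replicate 3. Against TER119-SIINFEKL the 148 calls were 45 to 101 when 1 library was left out. The cause of these changes was not tested beyond the smaller number of libraries. Same-numbered OVA and Naive libraries had deviations correlated at 0.43, 0.14 and -0.02 for replicates 1, 2 and 3. The value for replicates 1 was the highest of all OVA and Naive pairs, and OVA replicate 1 stood at -0.24 and -0.16 with Naive replicates 2 and 3. Whether replicates 1 were handled together was not tested. With the replicate block 4668 genes were called against Naive. Of 55 list counts of at least 5, 37 stayed within 1.5 times in every alternative. Depth cannot limit single values here in a known way. In simulation 22.4% of changes of 0.5 on the log2 scale were recovered, but far fewer genes were changed there than were called in the data.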
